A study of Mus musculus with 3 samples.

Results

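The genes described here are Myc and 37 genes of ribosome production and polyamine synthesis, 38 of the 31053 genes counted in 3 single-cell libraries of mouse CD8 T cells. They were chosen by name, as a list, and all 38 were found in the count tables. Their levels were read in every library, and within the tumour-draining lymph node (TdLN) library in cells with RNA molecules of at least 2 of 5 marker genes against the remaining cells. The 5 marker genes are Nr4a1 and Egr2, transcription factors induced early after T cell receptor signalling, Tnfrsf9, which encodes the costimulatory receptor 4-1BB, Irf8, a transcription factor, and Cd83, a surface protein of activated lymphocytes and dendritic cells. None of the 5 is among the 38.

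The cells were P14 CD8 T cells, whose transgenic receptor recognises GP33, a lymphocytic choriomeningitis virus (LCMV) peptide, on H-2Db. Their donors were P14 mice carrying the TCF-1-GFP reporter. Naive CD44- GFP+ cells had been given to C57BL/6 mice on day 8 after subcutaneous B16.Gp, the B16.F10 melanoma line made to express the LCMV glycoprotein. The TdLN and PBMC (blood) libraries hold CD45.1+ CD44+ CD8 cells sorted on day 16 after that transfer. The Memory library holds CD45.1+ CD44+ KLRG1- CD127+ CD62L+ CD8 cells from day 200 after acute LCMV infection. All 3 carry the genotype label WT and the strain label C57BL/6. The labels do not give the age or number of the mice, or the tissue of the memory cells. Tumour-infiltrating cells, which the design names, were not analysed here.

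Myc is a transcription factor that T cells raise after antigen recognition, and it drives cell growth. Many of its targets build ribosomes: RNA polymerase I copies the ribosomal RNA genes in the nucleolus, snoRNA-protein complexes modify the RNA, and assembly factors and helicases fold and cut it around the ribosomal proteins. Polyamine enzymes are a further known group of Myc targets. In CD8 T cells this machinery rises ahead of division and is lower in resting memory cells.

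Myc binds DNA at the E-box CACGTG, so promoters of the members were searched for it. Windows of 300 bases, from 250 bases before to 50 after the annotated start, were taken from RefSeq (GRCm38.p6), and 31 of the 38 members had one; Rrs1, Npm1, Rrp12, Fbl, Srm, Bop1 and Myc did not. A gene can have several windows (32851 in all), and it was counted if any of them held the match. CACGTG, which reads the same on both strands, was present in 7 of the 31 members (22.6%: Ltv1, Mybbp1a, Nop2, Pes1, Ppa1, Utp20 and Wdr43). Of all 27025 genes with a window, 2187 held it (8.09%). The ETS motif CCGGAAGT, searched on both strands, was in 7 of 31 (22.6%: Gar1, Heatr1, Ltv1, Nhp2, Polr1c, Ppan and Wdr74) against 4.31% of all genes. CCAAT, also on both strands, was in 11 of 31 (35.5%) against 41.1%. Only Ltv1 held both CACGTG and CCGGAAGT. The 4 windows below belong to the E-box members whose RNA was at least 1.5-fold higher in the marked TdLN cells described further on, and the capitals are the CACGTG match. They lie at chr10:61648371-61648670 (+ strand) for Ppa1, chr11:72441077-72441376 (+) for Mybbp1a, chr10:88826765-88827064 (-) for Utp20 and chr6:125131633-125131932 (+) for Nop2. With the start base counted as 1 and the base before it as -1, the match begins at -140, 41, 38 and -60. A match of letters is a description and does not show binding.
Ppa1: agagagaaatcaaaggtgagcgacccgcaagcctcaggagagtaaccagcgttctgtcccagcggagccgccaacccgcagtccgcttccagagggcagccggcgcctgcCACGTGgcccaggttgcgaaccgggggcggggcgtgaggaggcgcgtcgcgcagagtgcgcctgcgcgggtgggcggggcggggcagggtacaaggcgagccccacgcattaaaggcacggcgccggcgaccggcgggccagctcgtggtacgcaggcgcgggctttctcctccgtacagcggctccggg
Mybbp1a: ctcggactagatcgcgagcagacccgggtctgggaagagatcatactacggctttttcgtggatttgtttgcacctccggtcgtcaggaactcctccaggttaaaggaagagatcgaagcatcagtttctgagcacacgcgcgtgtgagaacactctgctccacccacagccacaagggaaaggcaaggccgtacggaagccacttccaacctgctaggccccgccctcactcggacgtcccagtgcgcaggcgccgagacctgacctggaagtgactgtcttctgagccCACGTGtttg
Utp20: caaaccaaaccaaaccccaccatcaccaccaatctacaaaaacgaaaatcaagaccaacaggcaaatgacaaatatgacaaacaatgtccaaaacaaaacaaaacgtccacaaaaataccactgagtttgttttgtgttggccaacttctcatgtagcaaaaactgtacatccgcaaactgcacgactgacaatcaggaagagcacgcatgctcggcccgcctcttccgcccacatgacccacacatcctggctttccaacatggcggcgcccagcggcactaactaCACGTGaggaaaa
Nop2: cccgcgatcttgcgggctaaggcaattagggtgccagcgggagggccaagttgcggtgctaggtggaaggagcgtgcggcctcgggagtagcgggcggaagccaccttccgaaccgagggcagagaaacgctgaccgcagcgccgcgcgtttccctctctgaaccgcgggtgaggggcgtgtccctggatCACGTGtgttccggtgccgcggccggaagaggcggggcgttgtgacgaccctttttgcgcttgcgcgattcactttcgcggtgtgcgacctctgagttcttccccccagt

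After cells with 500 or more detected genes and no more than 10% mitochondrial counts had been selected, cells with RNA of B or myeloid cells, or with no T cell gene, were set aside: 216 in TdLN, 2 in PBMC and 13 in Memory. This left 6049, 5650 and 6990 T cells with 68135133, 48983638 and 70023714 counts, and medians of 9742, 7090 and 9958 unique molecular identifiers (UMIs, each 1 captured RNA molecule) per cell. The libraries shared 11 to 17 cell barcodes in each pair. All 6 T cell genes checked (Cd3d, Cd3e, Cd3g, Cd8a, Cd8b1, Trac) passed 10 CPM (counts of a gene per 1000000 counts of all genes, summed over cells) in every library. Summed over 8 genes, B cell RNA was at 21.5, 12.3 and 4.74 CPM, and over 14 genes myeloid RNA at 3.02, 3.76 and 0.528 CPM. Cells dividing, with UMIs of at least 2 of 12 division genes, made up 10.1%, 3.82% and 1.44%. Tissue, day, sort and preparation cannot be told apart between the libraries. There is 1 library per group, so no spread between animals is known and no test between groups was possible; 95% intervals cover counting error only.

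Across the libraries, the members were lowest in blood. Their summed level in CPM was 4031 for TdLN, 2978 for PBMC and 3601 for Memory, and PBMC was the lowest library for 35 of the 38. The exceptions were Rangrf, Ppa1 and Wdr12, which were lowest in Memory. TdLN was highest for 31 members, and Memory for the other 7: Polr1a, Wdr43, Ddx21, Ddx18, Gnl3, Dkc1 and Nop10. The 3 comparisons reuse the same 3 libraries, so their counts are not separate observations.

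**Figure D1:**
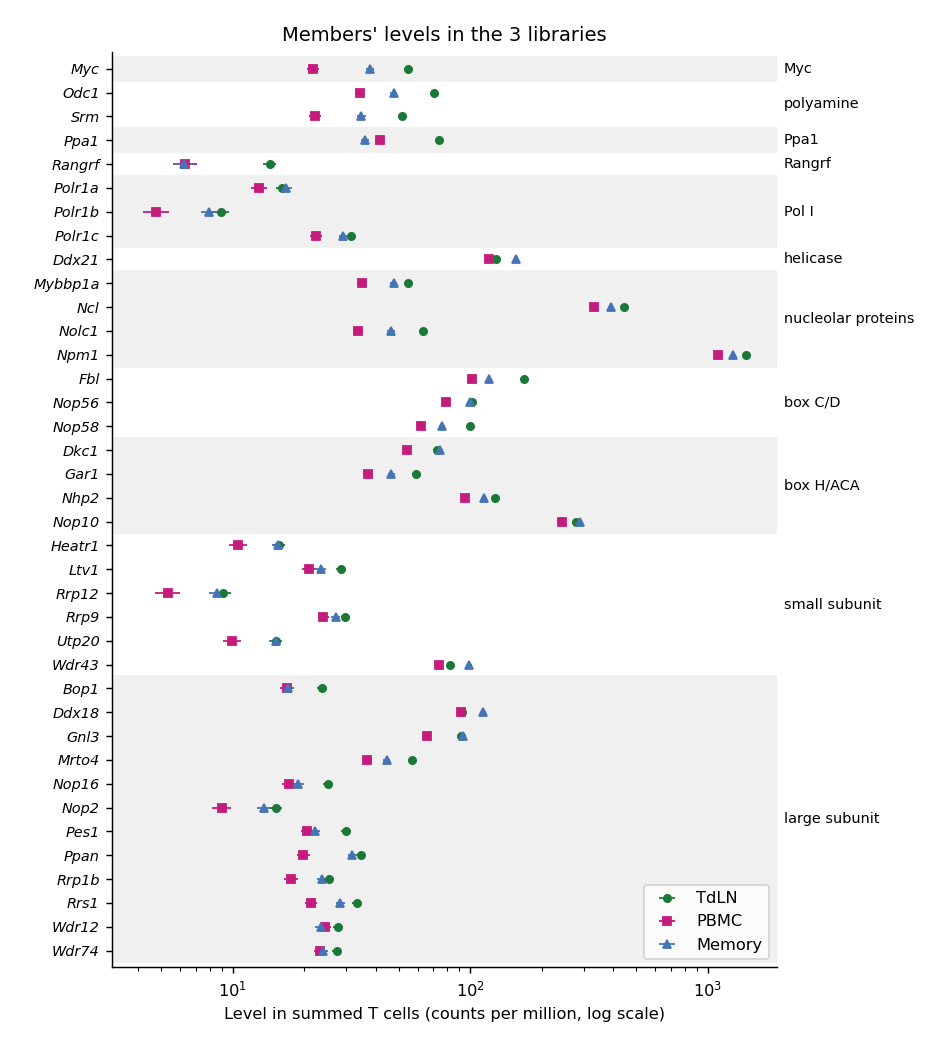
Level of each of the 38 members in the summed T cells of the TdLN, PBMC and Memory libraries, in CPM on a log axis, with exact Poisson 95% intervals that cover counting error only. Rows are ordered by role, and the PBMC point is the leftmost in 35 rows.

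Myc (chr15:61985391-61990374, GRCm38, protein coding) was at 54.6 CPM for TdLN, 21.8 CPM for PBMC and 37.9 CPM for Memory. The highest and lowest of these levels differed 2.51-fold (95% interval 2.34 to 2.69). After every cell was thinned to 4200 UMIs, which left out 86, 502 and 270 shallower cells, 18.5% of TdLN cells (Clopper-Pearson 95% interval 17.5 to 19.5), 6.49% of PBMC cells (5.83 to 7.2) and 13% of Memory cells (12.2 to 13.8) held a Myc UMI. The order of the libraries was thus that of the summed level. No cell type here is known to lack Myc, so the share that free RNA would give was not measured.

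Polyamine enzymes followed the same order as Myc. Odc1, the ornithine decarboxylase that starts the pathway (chr12:17544794-17551505), was at 70.2, 34.2 and 47.7 CPM in TdLN, PBMC and Memory. Srm, spermidine synthase (chr4:148591503-148594993), was at 51.4, 22.2 and 34.8 CPM. Against PBMC, TdLN was 2.05-fold higher for Odc1 (1.94 to 2.17) and 2.32-fold higher for Srm (2.16 to 2.48), the 2 largest ratios after Myc apart from Rangrf. Rangrf, a Ran-binding nuclear import factor (chr11:68972484-68975185), was at 14.3, 6.29 and 6.20 CPM, with PBMC and Memory indistinguishable (1.01-fold, 0.874 to 1.18). Ppa1, the cytosolic pyrophosphatase (chr10:61648552-61674168), was at 73.7, 41.6 and 36.0 CPM. Rangrf and Ppa1 were the members that stood above both other libraries in TdLN by more than 1.5-fold.

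The abundant nucleolar proteins moved less. Npm1, a ribosome chaperone with many near-identical processed copies in the genome, so that its count is uncertain, was at 1450 CPM for TdLN, 1110 CPM for PBMC and 1279 CPM for Memory. Ncl, nucleolin, was at 445, 331 and 393 CPM. The 12 members of large subunit assembly summed to 483, 364 and 454 CPM, and the 4 box H/ACA proteins, which guide pseudouridylation of RNA, to 536, 431 and 524 CPM. The DEAD-box helicases Ddx21 (129, 120 and 156 CPM) and Ddx18 (92.2, 91 and 113 CPM) were higher in Memory than in either day 16 library. Between TdLN and PBMC, Ddx18 was the member whose interval held 1 (1.01-fold, 0.975 to 1.05).

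A ratio was called where it reached 1.5-fold either way and the mean of the 2 groups was at least 10 CPM. In TdLN over PBMC, 36 members passed the minimum and 15 were called higher and 0 lower, against 9.67% of 6288 genes higher and 3.82% lower. Of these 15, Nop2, Rangrf and Utp20 were under 10 CPM in PBMC and passed only through TdLN. The median log2 ratio of the members that passed was 0.54, and that of all genes tested was 0.12. In TdLN over Memory, 36 passed, 2 were called higher (Rangrf, 2.31-fold, and Ppa1, 2.05-fold) and 0 lower, against 11% and 5.1% of 6376 genes. Rangrf, under 10 CPM in Memory, passed only through TdLN, the group where it was high. The members' median there was 0.19 beside 0.14 for all genes, and 29 of 36 ratios were above 1. In PBMC over Memory, 35 passed and 5 were called lower (Myc, Nop2, Ppan, Srm and Utp20) and 0 higher, against 3.91% and 3.89% of 6170 genes. Nop2 and Utp20 were under 10 CPM in PBMC and passed only through Memory. The median was -0.33 beside 0.02. Scaling by TMM factors lowered the median of all genes from 0.14 to 0.02 in TdLN over Memory and from 0.12 to 0.01 in TdLN over PBMC. With it, 9 members were called higher in TdLN over PBMC (background 6.3%). The direction between TdLN and Memory flipped for Nop56, Ppan, Polr1c, Rrp1b, Heatr1, Utp20 and Rrp12, and that between TdLN and PBMC for Ddx21 and Ddx18. Without marked cells, 8 members were called higher in TdLN over PBMC (background 8.36%) and 1 in TdLN over Memory (9.86%).

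Depth per cell differed between libraries and moved with these levels. At 6000 to under 12000 UMIs per cell the members summed to 3646, 2878 and 3541 CPM in TdLN, PBMC and Memory, so TdLN and Memory differed 1.03-fold (1.02 to 1.04). At 12000 UMIs or more the sums were 4637, 3340 and 3828 CPM, and TdLN over Memory was 1.21-fold. PBMC was lowest in each range, at 0.761, 0.813 and 0.872 times the Memory level from the shallowest range to the deepest. Myc itself was at 3.71 CPM in the 2293 PBMC cells with under 6000 UMIs, 21.3 CPM in the middle range and 31.3 CPM at 12000 or more. In TdLN it was at 48.6, 61.1 and 45.3 CPM in these ranges. The TdLN to PBMC ratio of Myc was therefore 13.1, 2.87 and 1.45.

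In blood, cells with RNA of cytotoxic effector genes held less of the members' RNA, whereas in TdLN the few such cells held more. The 2792 PBMC cells with UMIs of at least 2 of Gzma, Gzmb, Cx3cr1, Klrg1 and Zeb2 summed to 2553 CPM of the members, and the other 2858 PBMC cells to 3202 CPM, a ratio of 0.797. Myc was at 7.86 CPM in the former and 29.1 CPM in the latter. The same split gave 8177 CPM in 40 TdLN cells against 3989 CPM in the other 6009 (2.05-fold, 2.0 to 2.1), and 3318 CPM in 353 Memory cells against 3615 CPM in 6637 (0.918-fold, 0.900 to 0.936). Myc did not follow the sum in TdLN, where it was at 38.1 CPM against 54.7 CPM (0.696-fold, 0.454 to 1.02). In Memory it was at 30.8 CPM against 38.3 CPM (0.804-fold, 0.653 to 0.980). This split was chosen after the members' values had been seen, and it was not matched for depth. On average the cells with effector RNA held fewer UMIs than the other cells in PBMC and Memory, and more in TdLN. Whether depth sets these ratios was not tested. Klrg1 also touches the gate of the Memory sort. Without such cells in any library, PBMC over Memory had 1 member called lower in place of 5 (background 8.51%), and the summed ratio was 0.886 in place of 0.827.

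Within TdLN, 333 of the 6049 T cells were marked, that is, had UMIs of at least 2 of the 5 marker genes, and all 38 members were higher in them than in the other 5716. The members summed to 6702 CPM in marked cells and 3745 CPM in the others, a ratio of 1.79 (1.77 to 1.81). Of the 38, which all passed the minimum, 27 were called higher and 0 lower, against 16.8% of 6517 genes higher and 4.7% lower. Among the 27, Polr1b and Rrp12 were under 10 CPM in the other cells and passed only through the marked ones. The median log2 ratio was 0.78, beside 0.11 for all genes. Cells of 1 library are not replicates, so these ratios describe this library only.

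**Figure D2:**
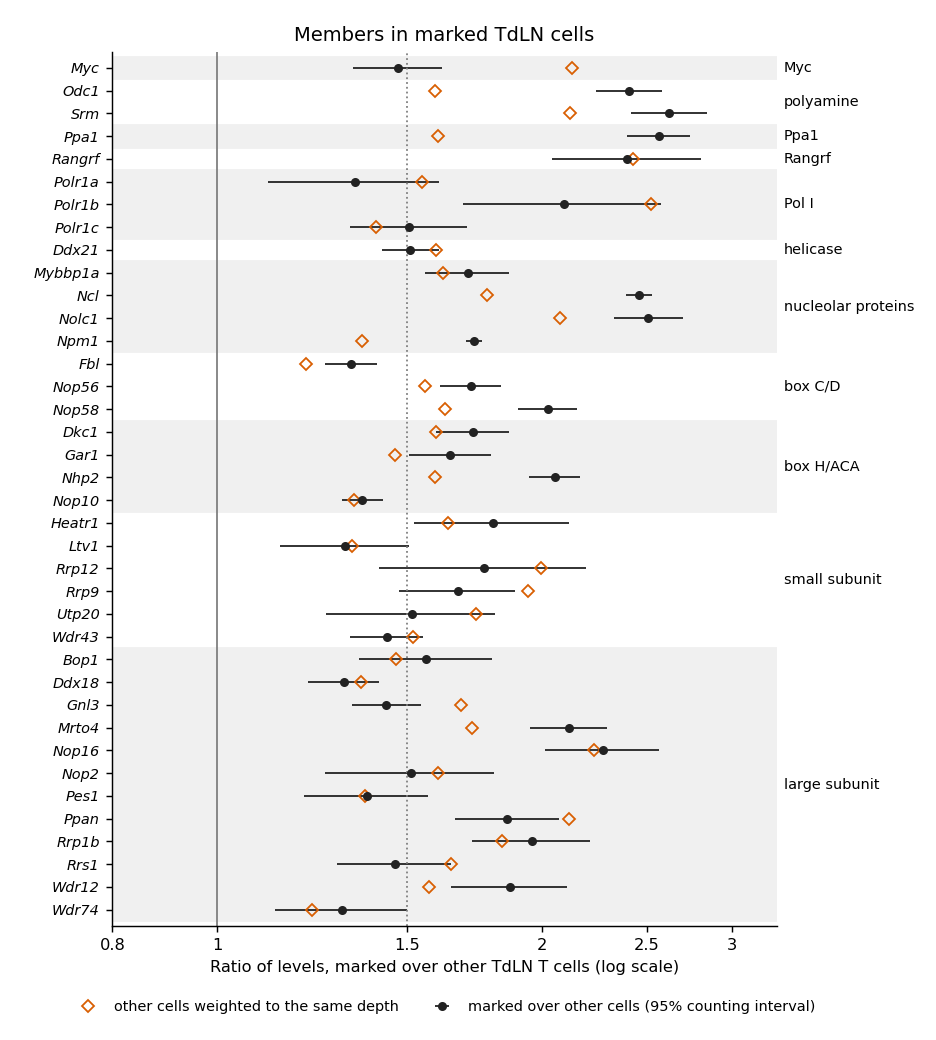
Ratio of each member's level in marked over other TdLN T cells on a log axis, with 95% counting intervals (circles), and the ratio after the other cells were weighted to the depth of the marked cells (diamonds). The solid line is no difference and the dotted line is 1.5-fold. All 38 circles and all 38 diamonds lie to the right of the solid line.

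The polyamine enzymes, Ppa1 and Rangrf were among the members with the largest ratios. Srm was at 117 CPM in marked cells and 44.4 CPM in the others (2.62-fold, 2.42 to 2.84), and Odc1 at 149 and 61.8 CPM (2.41-fold). Ppa1 was at 164 and 64.0 CPM (2.57-fold), and Rangrf at 30.3 and 12.6 CPM (2.4-fold). Srm, Rangrf and Odc1 also had the highest TdLN to PBMC ratios after Myc.

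Among the nucleolar phosphoproteins, Ncl was at 959 CPM in marked cells and 389 CPM in the others (2.46-fold, 2.39 to 2.53). Nolc1, which binds box H/ACA and C/D particles, was at 139 and 55.4 CPM (2.51-fold). Npm1 was at 2345 and 1354 CPM (1.73-fold), and Mybbp1a, a nucleolar Myb-binding protein, at 87.6 and 51.3 CPM (1.71-fold). All 4 of this group were called higher.

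For the snoRNA-protein complexes, the box C/D core, which guides methylation of ribosomal RNA, was uneven. Nop58 was at 184 and 90.8 CPM (2.02-fold) and Nop56 at 164 and 95.2 CPM (1.72-fold), whereas the methyltransferase Fbl was at 217 and 163 CPM (1.33-fold, 1.26 to 1.41). The intervals of Fbl and Nop58 did not overlap. In the box H/ACA complex, Nhp2 was at 237 and 115 CPM (2.05-fold), the pseudouridine synthase Dkc1 at 117 and 68.0 CPM (1.73-fold) and Gar1 at 91.2 and 55.4 CPM (1.64-fold). Nop10, the smallest protein of that complex, was at 366 and 268 CPM (1.36-fold) and was not called.

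RNA polymerase I subunits summed to 82.9 CPM in marked cells and 53.6 CPM in the others. Polr1b, its second largest subunit, was at 16.8 and 8.03 CPM (2.09-fold, 1.69 to 2.58), Polr1c, shared with polymerase III, at 45.1 and 30.0 CPM (1.51-fold), and Polr1a, the largest subunit, at 20.9 and 15.6 CPM (1.34-fold, 1.12 to 1.61). The helicase Ddx21, linked to polymerase I transcription, was at 185 and 123 CPM (1.51-fold).

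Of the 12 large subunit assembly factors, 7 were called higher. Nop16 was at 50.9 and 22.4 CPM (2.28-fold), Mrto4 at 109 and 51.4 CPM (2.12-fold), Rrp1b at 45.5 and 23.2 CPM (1.96-fold) and Ppan at 59.2 and 31.9 CPM (1.86-fold). The 3 proteins of the PeBoW complex, which matures the large subunit RNA, were at 1.87-fold (Wdr12), 1.56-fold (Bop1) and 1.38-fold (Pes1). Nop2, an RNA methyltransferase, was at 1.51-fold. Rrs1, Gnl3, Ddx18 and Wdr74 lay between 1.31-fold and 1.46-fold. Of the 6 small subunit assembly factors, 4 were called: Heatr1 (1.80-fold), Rrp12 (1.77-fold), Rrp9, a U3 snoRNA-binding protein (1.67-fold), and Utp20 (1.52-fold). Wdr43 and Ltv1 were at 1.44-fold and 1.31-fold. Around the threshold of 1.5-fold lay Polr1c, Ddx21, Nop2 and Utp20 just inside, at 1.51 to 1.52, and Rrs1 and Myc just outside, at 1.46 and 1.47.

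Marked cells were deeper and more often dividing, which moved with these ratios. Their median was 15083 UMIs against 9640 in the other cells, and 33.3% were dividing against 8.78%. When the other cells were weighted to the depth of the marked cells in 10 bins, 28 members were called higher against 3.35% of 6534 genes, and the summed ratio was 1.52. In both forms 23 members were called. Npm1, Bop1, Polr1c and Gar1 were called only without the weighting, and Myc, Rrs1, Gnl3, Polr1a and Wdr43 only with it. Myc went from 76.8 over 52.2 CPM (1.47-fold, 1.34 to 1.62) to 76.8 over 36.0 CPM (2.13-fold). The weighted other cells held more division RNA than the marked cells (0.838-fold in marked cells, 12 of 12 genes below 1). Without weighting, the Myc ratio was 1.41 among dividing cells (1.17 to 1.71) and 2.09 among cells not dividing (1.86 to 2.34).

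**Figure D3:**
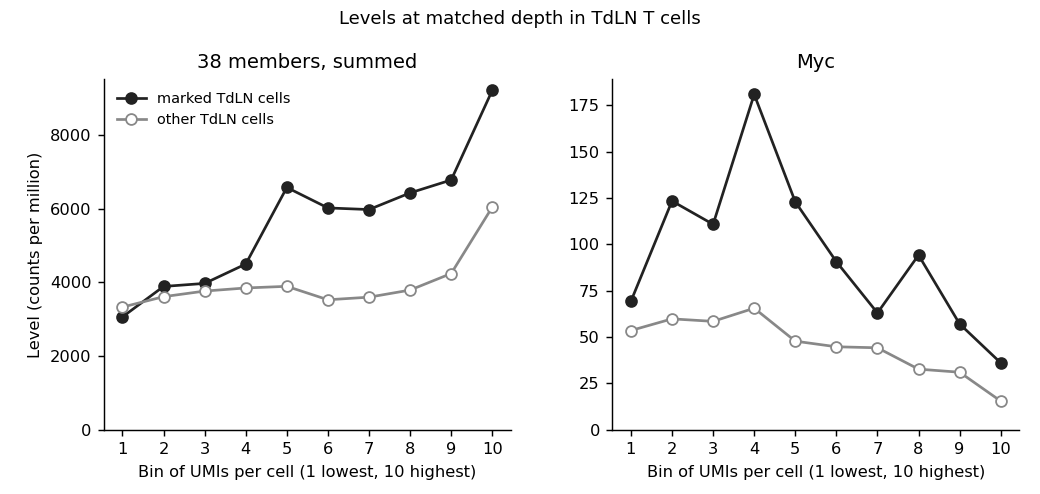
Summed level of the members (left) and level of Myc (right) in CPM, in marked (filled) and other (open) TdLN T cells, by 10 bins of UMIs per cell that hold 33 or 34 marked cells each. The members' curves lie close together in bins 1 to 4 and apart in bins 5 to 10, whereas the Myc point of the marked cells is the higher in all 10 bins.

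Across the bins, the sum and Myc behaved differently. In the 4 shallowest, with marked cells of 3769 to 11834 UMIs, the summed ratio lay between 0.920 and 1.17, and from bin 5 upward it lay between 1.52 and 1.71. In bin 1 the interval was below 1 (0.855 to 0.989). In bins 2 and 4 it was above 1, and in bin 3 it held 1. Bin 10 compares 34 marked with 33 other cells, all dividing, at 9206 and 6039 CPM. Over 4 equal groups of all TdLN T cells by depth, from shallow to deep, the summed ratio was 0.921, 1.07, 1.08 and 1.85, and that of Myc 1.35, 1.75, 2.41 and 1.64. The shallowest group held 26 marked cells, and its intervals, 0.845 to 1.0 for the sum and 0.714 to 2.33 for Myc, both held 1.

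Dividing and non-dividing cells gave the same direction. Among dividing cells the members summed to 7273 CPM in 111 marked and 3906 CPM in 502 other cells (1.86-fold, 34 members called higher against 10.7% of genes). Among cells not dividing, 222 marked cells were at 5965 CPM and 5214 others at 3715 CPM (1.61-fold, 25 called against 6.32%). Unmarked dividing cells were close to unmarked cells not dividing for the sum (3906 over 3715 CPM, 1.05-fold) and lower for Myc (32.3 over 55.8 CPM, 0.579-fold). B cell genes summed to 17.6 CPM in marked and 22.0 CPM in other cells, of which 17.3 and 21.3 CPM were Cd79b; Ms4a1, Fcmr, Ebf1, Pax5 and Blk were at 0 in marked cells. Myeloid genes summed to 2.27 and 3.1 CPM, with 5 of 14 seen in marked cells. Of these 5, Xcr1 (0.455 and 0.0163 CPM), C1qc (0.455 and 0.293) and Spi1 (0.152 and 0.0813) were higher in marked cells. Lyz2 (1.06 and 1.54) and C1qb (0.152 and 0.406) were lower. Csf1r was at 0 in marked cells, and Clec9a, Flt3 and Siglech were at 0 in both groups. In the cells set aside from TdLN the B cell and myeloid sums were 2509 and 10631 CPM. With those cells kept, 393 cells were marked and 26 members were called higher (background 16.9%).

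The difference grew with the number of marker genes seen. Over the 4329 TdLN cells with none, which summed to 3597 CPM, the ratio was 1.14 in 1387 cells with 1 marker gene, 1.43 in 254 cells with 2 and 2.66 in 79 cells with 3 or more (2.62 to 2.70). In that last group all 38 members were called higher, against 31% of genes. Myc was at 51.9, 53.0, 68.8 and 91.6 CPM from none to 3 or more. Deeper cells show more marker genes, and the cells in these groups were not matched for depth here.

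A minority of cells carried much of the difference. At 4200 UMIs per cell, the members held a median of 0.405% of a marked cell's UMIs and 0.357% of an unmarked cell's, whereas the 95th percentiles were 1.67% and 0.619%. Cells with 3 or more marker genes had a median of 0.786%. The medians of all T cells were 0.357% in TdLN, 0.262% in PBMC and 0.333% in Memory. Shares of at least 1% were found in 68 TdLN cells (1.14%), 1 PBMC cell and 4 Memory cells. Of the 68, 42 were marked, 22 had 1 marker gene and 4 had none. They made up 12.7% of marked cells (Clopper-Pearson 9.27 to 16.7), 38% of those with 3 or more marker genes (27.3 to 49.6) and 0.462% of unmarked cells (0.302 to 0.676).

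**Figure D4:**
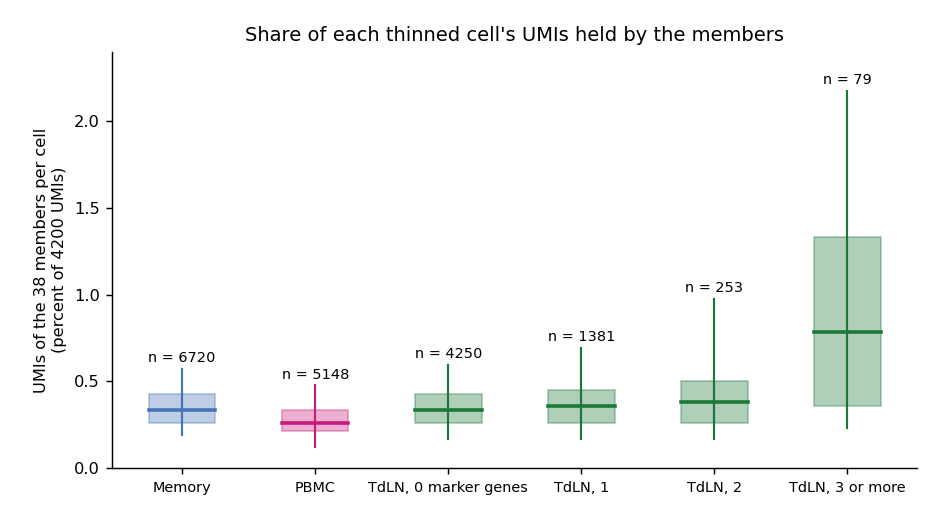
Percent of a cell's UMIs held by the 38 members after thinning to 4200 UMIs. Lines run from the 5th to the 95th percentile, boxes from the 25th to the 75th, and thick bars are medians; n is the number of cells. The box of TdLN cells with 3 or more marker genes, with a median of 0.786%, lies highest among the TdLN groups.

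The 68 high cells were deep, with a median of 21844.5 UMIs before thinning against 9762 in the rest, and 42.6% were dividing against 9.74%. Their mitochondrial share was 4.48% against 5.33%. Among genes chosen after these cells had been seen, Il2ra, the high-affinity interleukin 2 receptor chain, was at 49.0 CPM in them and 0.283 CPM in the rest (14 and 7 counts). Myc was at 165 and 55.2 CPM (2.98-fold), a value that helped to choose these cells, since Myc is 1 of the 38 members in the share. Irf8 was 23.0-fold, Tnfrsf9 22.5-fold and Cd83 12.7-fold higher. Nr4a1 was at 21.0 and 14.9 CPM (1.41-fold, 0.513 to 3.09), Egr2 had 1 count in the high cells, and Fos, an immediate early gene, was at 63.0 and 190 CPM (0.333-fold). Cd4, Foxp3, Cd79a and Lyz2 had 0 counts there, which among 285600 UMIs allows up to 10.5 CPM each.

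The 5 marker genes differed in how they went with the members' sum and with Myc. In thinned cells, which could hold other marker genes too, the intervals of Irf8 and Cd83 lay above 1 for both. For Tnfrsf9 the interval lay above 1 for the sum and held 1 for Myc. For Nr4a1 and Egr2 it lay above 1 for Myc and held 1 for the sum. An interval that holds 1 does not show that there is no link, and these intervals leave out variation between cells. In thinned TdLN cells, the 163 with a Tnfrsf9 UMI summed to 6056 CPM and the 5800 without to 3680 CPM (1.65-fold, 1.59 to 1.70). The ratio was 1.54 for Cd83 (96 cells) and 1.45 for Irf8 (193 cells). For Nr4a1 (338 cells) it was 1.02 (0.991 to 1.05), and for Egr2 (138 cells) 1.02 (0.977 to 1.06). Myc was at 109 CPM with an Egr2 UMI and 55.2 CPM without (1.97-fold, 1.5 to 2.53), and 89.5 and 54.5 CPM for Nr4a1 (1.64-fold, 1.36 to 1.97). It was at 54.0 and 56.5 CPM for Tnfrsf9 (0.956-fold, 0.670 to 1.32). For Irf8 and Cd83, whose intervals overlap those of Nr4a1 and of Tnfrsf9, the ratio was above 1: Irf8 (1.44-fold, 1.11 to 1.85) and Cd83 (1.55-fold, 1.08 to 2.17). The intervals of Egr2 and Tnfrsf9 did not overlap, for Myc or for the sum. Another split, before thinning, set cells with 1 marker gene alone over cells with none. There Myc was lower with Irf8 (0.811-fold, 0.684 to 0.956) and Cd83 (0.559-fold, 0.410 to 0.746). It was 0.855-fold with Tnfrsf9 (0.720 to 1.01), 1.22-fold with Nr4a1 and 1.35-fold with Egr2. The sum was 1.18-fold, 1.39-fold and 1.27-fold for Irf8, Cd83 and Tnfrsf9, 1.04-fold for Nr4a1 (1.03 to 1.05) and 1.02-fold for Egr2 (0.996 to 1.04).

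**Figure D5:**
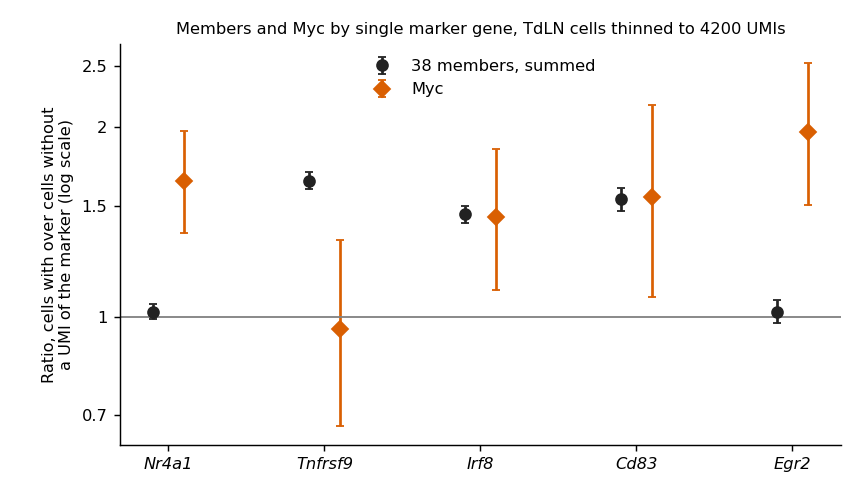
Ratio of the summed members and of Myc alone in TdLN T cells with over cells without a UMI of each marker gene, after thinning to 4200 UMIs, on a log axis with 95% counting intervals. The sum is at 1.02 for Nr4a1 and Egr2 and at 1.45 to 1.65 for Irf8, Cd83 and Tnfrsf9, while Myc is highest for Egr2 and at 0.956 for Tnfrsf9.

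Myc RNA in a cell went only weakly with the other members. Of the thinned TdLN cells, 1104 had a Myc UMI and 4859 had none. The 37 other members summed to 3997 CPM in the former and 3619 CPM in the latter (1.10-fold, 1.09 to 1.12). Of 35 that passed the minimum, 0 were called in either direction, against 0.219% of 6391 genes higher and 0.344% lower. Their ratios ranged up to 1.37-fold, for Nolc1 (1.21 to 1.56), and 19 of the 37 had an interval above 1. Npm1 was at 1.04-fold and Odc1 at 1.02-fold (0.894 to 1.16). In marked cells the sum was 6574 CPM with and 5047 CPM without a Myc UMI (1.30-fold, 1.24 to 1.37), in unmarked cells 1.06-fold, in PBMC 1.14-fold and in Memory 1.02-fold. Division genes summed to 129 and 224 CPM (0.575-fold), with all 8 that passed the minimum below 1 and 6 of them called lower. A cell without a Myc UMI at this depth can still hold Myc RNA.

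Other genes of the same machinery were read from lists that are not part of the 38. The shares of all genes called higher, to read these counts against, were 16.8%, and 3.35% after depth weighting. In marked over other TdLN cells, 15 of 33 small subunit processome genes that passed the minimum were called higher, led by Nol10 (2.15-fold) and Noc4l (2.02-fold), and 9 were after depth weighting. For large subunit assembly it was 14 of 33, with Nip7 (1.93-fold) and Ebna1bp2 (1.90-fold), and 10 after weighting. For RNA polymerase I and III it was 3 of 20, among them Polr3k and Cd3eap, and 3 after weighting, the first of these counts being near the share of all genes. No gene of these 3 lists was called lower. The medians were 0.50, 0.56 and 0.22 on the log2 scale.

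In the polyamine pathway 4 of 8 were called higher: Eif5a, the protein that carries the spermidine-derived residue hypusine (1178 over 528 CPM, 2.23-fold), Sms, Amd1 and Azin1. After weighting 1 was. Of other growth genes often counted as Myc targets, 31 of 36 were called higher, among them Hspd1 (2.79-fold), Ran (2.60-fold), Ranbp1 (2.51-fold) and Tfrc (2.28-fold), and 5 after weighting, against the same shares of 16.8% and 3.35%. The members' count went from 27 to 28 under the same weighting. These counts depend on the 1.5-fold threshold: after weighting, all 36 growth genes were still above 1. Their median log2 ratio was 0.39 and their summed ratio 1.31, beside 0.68 and 1.52 for the members. The median of all genes was 0.02.

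Of 10 Myc network genes that passed, 1 was called higher, beside 16.8% of all genes, so the count is not a result about the network. This was Mxd3, a repressor partner of Max (26.7 over 7.56 CPM, 3.53-fold). After weighting 0 of the 9 that passed were called, and the highest log2 ratio among them was 0.38. Max, the obligate partner of Myc, was at 70.3 and 64.5 CPM (1.09-fold, 0.988 to 1.2). Mxd1, Mxd4, Mnt, Mlx and Mga, other members of this network, lay between 0.688-fold and 0.850-fold. Mlxip, Huwe1 and Fbxw7 were between 0.924-fold and 1.04-fold. Mycn and Mycl had levels of at most 0.303 CPM, Mlxipl had none, and Mxi1 and Zbtb17 were under the minimum at 0.929-fold and 1.05-fold.

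Ribosomal protein genes, whose products these factors assemble, were not higher as a group. Of 83 that passed, 2 were called higher and 1 lower, 13 ratios were above 1, and the sum was at 0.872-fold in marked cells, or 0.980-fold after depth weighting. They summed to 387938 CPM in marked cells and 444937 CPM in the others. Stress genes of tissue dissociation were at 1.02-fold in sum, with Egr1 called higher (2.16-fold), Jun called lower (0.571-fold) and 11 of 14 past the minimum. Of those 11, 9 were below 1 (median log2 -0.25), and Hspa8 was the largest part of the sum, at 2179 and 1578 CPM. After depth weighting 10 of 11 were above 1 and the sum was at 1.12-fold.

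Few cells outside TdLN were marked. The 13 marked Memory cells summed to 6222 CPM of the members and the other 6977 to 3594 CPM (1.73-fold, 1.64 to 1.83), but 2 of them, with 3 or more marker genes, held 312 of the 1226 counts. The 11 marked PBMC cells were at 3186 CPM and the others at 2977 CPM (1.07-fold, 0.974 to 1.17). With so few cells, 1 cell can set these values.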

How the data were processed

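Sorted CD8 T cells had been sequenced with the 10x Genomics Chromium Next GEM 3' kit, per the labels' protocols, 1 library each for TdLN, PBMC and Memory. The authors deposited raw UMI counts for every gene in each called cell, made with Cell Ranger 3.1.0 on mm10, per the submitters' processing notes. Gene positions came from GENCODE M21 (GRCm38).

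Cells had to show 500 genes or more and no more than 10% mitochondrial counts. Cells with UMIs of at least 2 B cell genes or at least 2 myeloid genes, or with none of 6 T cell genes, were then left out, because Irf8 and Cd83 are also made by those cells. No doublet caller was run; an alternative removed the 5% of cells with the most UMIs. Counts were summed over cells and divided by their total (CPM). CPM has exact Poisson, each ratio exact conditional binomial and each share Clopper-Pearson 95% intervals (scipy 1.17.1, pandas 2.3.3, numpy 2.4.6, Python 3.11.15). Where TMM is named, edgeR 4.0.16 gave the factors. No p-value is given. On simulated Poisson counts 100% of 2-fold changes were called in each of the 5 comparisons. The changed genes had at least 20 CPM, and no variation between cells or libraries was simulated. The simulation therefore cannot show how the calls hold under such variation.

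The members, marker genes and gene lists were chosen with earlier results of these data known. Named genes are all members, the marker genes, the Myc network and up to 4 genes of each other list with the largest change either way in marked over other TdLN cells; Il2ra, Fos and the others given for the high cells were chosen after their values were seen. Some genes of the lists are not reported here.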

Additional observations from a re-analysis of the deposited data

How the results depend on the processing

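No paired analysis was possible because each group is 1 library and the labels carry no replicate numbers. Counts of members called were recomputed under 13 to 16 alternatives per comparison. Members called higher in TdLN over Memory went from 2 (11% of all genes) to 8 with cells under 5% mitochondrial counts (12.9%) and 1 with a minimum of 20 CPM (10.7%). They went to 13 with a lower fold threshold (28.8%) and 1 without marked cells (9.86%). Members called lower in PBMC over Memory went from 5 (3.91%) to 8 with totals without ribosomal protein and mitochondrial genes (6.65%). They went to 3 with a minimum of 20 CPM (2.93%) and 0 with a fold of 2 (0.665%). With the lower fold threshold they were 19 (12.3%), and without cells with effector genes 1 (8.51%). Members called higher in TdLN over PBMC went from 15 (9.67%) to 23 with cells under 5% mitochondrial counts (11.6%) and 4 with a fold of 2 (2.42%). They went to 28 with the lower fold threshold (27.2%), 9 with TMM scaling (6.3%) and 8 without marked cells (8.36%). In marked over other TdLN cells 27 (16.8%) became 11 with a fold of 2 (5.2%) and 6 with at least 1 marker gene (4.98%). In Myc UMI over no Myc UMI, 0 higher (0.219%) became 1 with totals without ribosomal protein and mitochondrial genes (0.772%). With cells under 5% mitochondrial counts 3 were higher (1.75%) and 1 lower (2%). With no minimum 1 was higher (8.96%), and with the lower fold threshold 5 were (3.43%). The cause was not tested for any of these. The other 115 counts stayed within 1.5 times their value, and 0 members called in a comparison changed direction. Within that limit, 27 in marked cells became 18 without the 5% of cells with the most UMIs (4.91%) and 18 with each cell weighted the same (8.89%). It became 20 with totals without ribosomal protein and mitochondrial genes (10.4%, and 11.4% lower). It rose to 32 with thinned cells (19%), 35 with cells under 5% mitochondrial counts (23.9%) and 38 with at least 3 marker genes (28.7%). The alternatives without cells with effector genes, and without cells with a Cd4 or Foxp3 UMI (27 called in marked cells, 16.9%), were chosen after seeing the data. Polr1b and Rrp12 passed the minimum in marked over other TdLN cells through the marked cells only, and in no comparison between libraries.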
